A study of Mus musculus with 8 samples.

Results

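The results below describe 3942 distal RNA polymerase II (Pol2) peaks in enhancer-marked chromatin of mouse skeletal muscle, which were 19.5% of the 20193 Pol2 peaks deposited. They were selected on measured values, namely the Pol2, H3K4me1, H3K27ac and H3K4me3 peak lists of the same tissue. A peak was kept if it lay on chromosomes 1 to 19 or X and was narrower than 1000 bases. It had to overlap an H3K4me1 or H3K27ac peak and no H3K4me3 peak, and its midpoint had to be more than 1 kb from the transcription start site (TSS) of every annotated protein-coding transcript of a protein-coding gene. Of the 20186 Pol2 peaks on these chromosomes, 19740 met the width limit, 18977 of those overlapped an enhancer mark, 4280 of those lacked H3K4me3, and 3942 of those met the TSS distance. At the boundaries, the widest peak kept was 996 bases, in Pygm, and the narrowest left out by width alone was 1022 bases, nearest to Trim63. The kept peak closest to a TSS was 1003 bases from that of Ntf5, and the farthest one left out was 997 bases from that of Lrrc61.

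The study mapped Pol2, the glucocorticoid receptor (GR), the architectural protein CTCF and 3 histone marks by chromatin immunoprecipitation and sequencing in C57/Bl6J mice of wild-type genotype, 10 to 12 weeks old. Nuclei came from whole skeletal muscle, so the peaks pool muscle fibres with the other cells of the tissue. There was 1 library per antibody and no replicate, with Input 1 for GR, H3K27ac, Pol2 and H3K4me1 and Input 2 for CTCF and H3K4me3. Sequencing depth was unknown, and with no replicate no difference was tested. The 95% intervals are exact Clopper-Pearson intervals for the counts alone, not for differences between animals, and neighbouring peaks are not independent.

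Pol2 transcribes protein-coding genes and also gathers at active enhancers, where it can make short-lived enhancer RNAs. H3K4me1 lies broadly over enhancers and the flanks and bodies of active genes, H3K27ac marks active enhancers and promoters, and H3K4me3 marks promoters. A distal Pol2 peak can therefore be polymerase at an enhancer or polymerase travelling through a transcribed gene. GR is a hormone-activated transcription factor that in muscle controls metabolic and atrophy genes, and it binds DNA at palindromic elements or beside other factors.

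Sequences of 8 of these peaks are shown because they carry the contrasts described afterwards. All are plus-strand sequence of GRCm38 (mm10), from the RefSeq FASTA of that build, written 5′ to 3′ over the whole peak, and each lies in an intron unless stated. In the first 4, which overlapped a GR peak, H3K4me1 and H3K27ac, capitals mark a match to the GR element ACANNNTGT. The first lies in Fkbp5 at chr17:28512833-28513117, 1618 bases from the nearest TSS of this gene, which encodes a co-chaperone of GR and is a classical GR target. The second lies in Fbxo32 at chr15:58211439-58211718. This gene encodes atrogin-1, a ubiquitin ligase of muscle atrophy. The third lies in Nfix at chr8:84790358-84790479, a nuclear factor I gene. The fourth lies in Lpin1 at chr12:16552580-16552708, the gene of a phosphatidate phosphatase.
Fkbp5: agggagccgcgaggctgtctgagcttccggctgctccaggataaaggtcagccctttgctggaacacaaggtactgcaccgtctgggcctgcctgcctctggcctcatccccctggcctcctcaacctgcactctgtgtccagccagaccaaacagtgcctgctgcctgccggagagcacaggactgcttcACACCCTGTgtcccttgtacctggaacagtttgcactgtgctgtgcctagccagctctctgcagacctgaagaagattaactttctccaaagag
Fbxo32: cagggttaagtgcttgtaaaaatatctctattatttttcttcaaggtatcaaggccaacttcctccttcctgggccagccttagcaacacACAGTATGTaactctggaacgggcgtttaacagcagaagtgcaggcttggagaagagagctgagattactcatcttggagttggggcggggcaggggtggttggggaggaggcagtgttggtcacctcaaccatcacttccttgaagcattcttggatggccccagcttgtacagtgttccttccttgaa
Nfix: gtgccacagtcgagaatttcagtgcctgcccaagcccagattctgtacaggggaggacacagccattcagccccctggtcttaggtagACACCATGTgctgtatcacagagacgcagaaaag
Lpin1: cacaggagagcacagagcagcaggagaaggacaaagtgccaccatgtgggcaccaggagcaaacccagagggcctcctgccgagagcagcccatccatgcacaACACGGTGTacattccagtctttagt

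The next 2, also with GR and both enhancer marks, hold in capitals a match to the consensus of MEF2, a family of transcription factors of muscle genes. Both are intergenic. One lies 1534 bases from a TSS of Mef2d, itself a MEF2 gene, at chr3:88140722-88140954. The other lies 6685 bases from a TSS of Asb2, which encodes a substrate receptor of a ubiquitin ligase, at chr12:103362538-103362834.
Mef2d: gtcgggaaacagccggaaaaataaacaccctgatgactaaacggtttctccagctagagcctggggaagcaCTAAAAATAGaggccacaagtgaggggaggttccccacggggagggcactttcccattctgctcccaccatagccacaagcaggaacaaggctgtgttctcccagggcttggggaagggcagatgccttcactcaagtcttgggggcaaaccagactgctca
Asb2: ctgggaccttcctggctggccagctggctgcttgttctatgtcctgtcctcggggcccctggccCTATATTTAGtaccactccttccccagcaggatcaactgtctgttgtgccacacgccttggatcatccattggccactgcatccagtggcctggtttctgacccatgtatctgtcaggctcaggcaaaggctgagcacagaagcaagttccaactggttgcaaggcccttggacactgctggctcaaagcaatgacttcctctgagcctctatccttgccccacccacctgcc

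The last 2 lay in the genes with the most distal Pol2 peaks, overlapped H3K4me1 alone and had no GR peak. Neither holds any of the GR element, MEF2, the MyoD-type E-box CAGCTG or the AP-1 site TGANTCA, so they carry no capitals. One lies in Ttn, the gene of the giant sarcomere protein titin, at chr2:76842124-76842250. The other lies in Tacc2, which encodes a coiled-coil protein of the centrosome, at chr7:130730369-130730492. They are 1034 and 1048 bases from a TSS of their gene, the closest of its peaks and just beyond the 1 kb limit.
Ttn: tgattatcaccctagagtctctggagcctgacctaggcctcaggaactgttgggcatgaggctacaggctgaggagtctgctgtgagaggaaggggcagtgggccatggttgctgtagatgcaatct
Tacc2: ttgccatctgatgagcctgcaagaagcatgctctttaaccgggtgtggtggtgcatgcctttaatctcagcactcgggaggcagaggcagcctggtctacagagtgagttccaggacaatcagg

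By their marks, 2269 peaks (57.6%) overlapped both H3K4me1 and H3K27ac, 1551 (39.3%) overlapped H3K4me1 only and 122 (3.09%) H3K27ac only. Many shared a wide H3K4me1 peak. The 1551 without H3K27ac overlapped 447 H3K4me1 peaks, up to 92 in a single one, so they were not separate marked regions. The median width of these 447 was 6319 bases, against 1367 over all H3K4me1 peaks. The Pol2 peaks were short, with a median width of 171 bases (quartiles 126 and 271). The label of enhancer fits the classes unequally. By midpoint, 1272 (82.0%) of the 1551 peaks without H3K27ac lay inside a protein-coding gene and 254 (16.4%) in a coding exon. The counts were 1514 (63.3%) and 63 (2.63%) for the 2391 peaks with H3K27ac. Over all Pol2 peaks the shares were 71.1% and 7.98%. They were 64.2% and 12.7% over distal Pol2 peaks of the same width limit with neither enhancer mark. Polymerase on a transcribed gene body and polymerase at an enhancer within it cannot be told apart for the enhancer-marked peaks.

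GR was a readout that the selection did not use, as was CTCF, described later. A GR peak overlapped 1261 of the 3942 distal Pol2 peaks (32.0%, interval 30.5 to 33.5), below the 61.2% over all Pol2 peaks, most of which carry H3K4me3. Of the 1261, 1178 (93.4%) had H3K27ac. GR met 1122 of the 2269 peaks with both marks (49.4%, 47.4 to 51.5) and 56 of the 122 with H3K27ac only (45.9%, 36.8 to 55.2). It met 83 of the 1551 with H3K4me1 only (5.35%, 4.28 to 6.59). The last share was near that of the 551 distal Pol2 peaks of the same width limit with neither enhancer mark, of which 17 had GR (3.09%, 1.81 to 4.89). Pol2 peaks with H3K4me3, 15140 in all, had GR at 71.8%. GR, Pol2, H3K27ac and H3K4me1 share 1 input, and its part in their overlap was not tested.

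**Figure D1:**
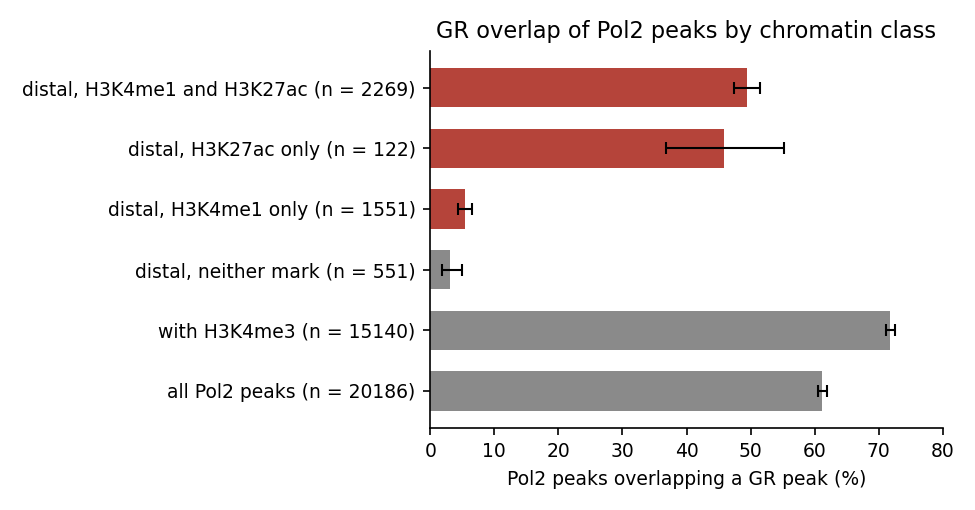
Share of Pol2 peaks that overlap a GR peak, in percent, for the 3 classes of enhancer-marked distal Pol2 peaks (red) and for distal Pol2 peaks with neither mark, Pol2 peaks with H3K4me3 and all Pol2 peaks (grey). Bars are shares and lines are 95% Clopper-Pearson intervals. Both classes with H3K27ac stand at 45.9% or more, and both distal classes without it at 5.35% or less.

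Where a GR peak overlapped, the distance between the midpoints, which the overlap and the widths limit, had a median of 81 bases (quartiles 39 and 134), and 747 of the 1261 pairs (59.2%) were within 100 bases. A single GR peak was found in 1243 cases and several, at most 3, in 18. In peaks with H3K27ac, GR midpoints fell at 14.3 per 100 Pol2 peaks in each of the 2 bins of 100 bases beside the centre and at 1.51 in the bin between 1900 and 2000 bases to the left. In peaks without H3K27ac the 2 centre bins had 1.61 and 2.13 per 100 and the same outer bin 0.645, so both classes rose at the centre. Peaks with H3K27ac but no GR were a median of 1438 bases from the nearest GR midpoint, and peaks with neither were 7107.5 bases away. The 1193 GR peaks involved, 5.15% of the 23187 GR peaks, had a median width of 253 bases against 212 over all GR peaks and 263 over those that overlapped another Pol2 peak.

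Peak width went with GR differently in the classes. Among peaks with H3K27ac, GR overlapped 42.6% of those under 150 bases wide, 52.1% at 150 to 199 bases, 53.7% at 200 to 299 and 56.8% from 300 bases up. Without H3K27ac the same bins gave 6.77%, 6.69%, 4.17% and 3.23%, so the wider peaks without acetylation did not have more GR even though a wider peak has more bases to overlap.

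Most of the peaks were intronic. By midpoint, 2292 (58.1%) of the 3942 peaks lay in introns of protein-coding genes, 317 (8.04%) in coding exons and 177 (4.49%) in untranslated exons. Another 240 (6.09%) lay in non-coding genes only and 916 (23.2%) were intergenic. Over all Pol2 peaks 29.8% lay in introns, 7.98% in coding exons, 33.4% in untranslated exons, 5.53% in non-coding genes only and 23.3% were intergenic. Only the shares in introns and untranslated exons thus stood apart from those of all Pol2 peaks. The 1261 with GR lay inside protein-coding genes in 58.8% of cases, against 76.3% of the 2681 without GR and 71.1% over all Pol2 peaks. The median distance to the nearest protein-coding TSS was 12500 bases. GR overlapped 29.8% of the 925 peaks at 1 to 5 kb, 30.2% of the 1837 at 5 to 25 kb, 35.0% of the 992 at 25 to 100 kb and 44.1% (36.9 to 51.6) of the 188 beyond 100 kb. H3K27ac was at 86.7% of those 188 against 58.2% of the peaks at 25 to 100 kb. The nearest protein-coding gene had a Pol2 peak outside this set within 1 kb of its TSS for 3385 peaks (85.9%). The same share was 88.0% for distal Pol2 peaks with neither mark and 82.0% for distal H3K27ac peaks without Pol2, so it was near that of other distal peaks.

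The peaks were unevenly crowded, and the share with GR was lower in more crowded stretches. The number of other Pol2 peaks of any kind within 10 kb, a split made after the data were seen, separated 571 peaks with none from 1373 with 11 or more. GR overlapped 57.1% (52.9 to 61.2) of the 571 isolated peaks, and then 50.4%, 42.6% and 23.6% of those with 1 to 2, 3 to 5 and 6 to 10 neighbours. It overlapped 8.81% (7.37 to 10.4) of the 1373. H3K27ac was at 85.5% of the isolated peaks and 31.2% of the most crowded, and their median widths were 140 and 228 bases. The same order of GR shares was present within the acetylated peaks, from 62.5% to 24.5%, and within the others, from 25.3% to 1.69%. The most crowded tier came from 96 nearest genes, and 91.7% of it lay inside protein-coding genes. What ties GR to crowding was not tested.

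**Figure D2:**
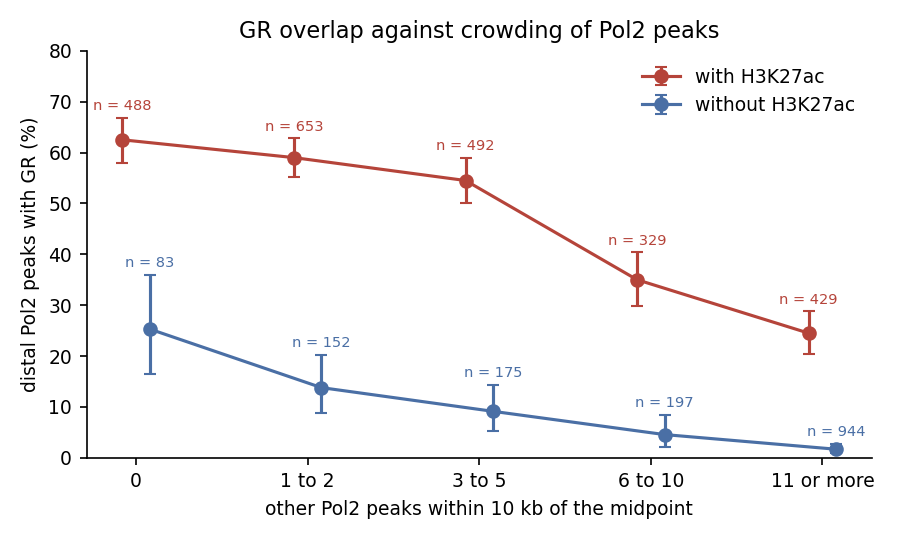
Share of distal Pol2 peaks that overlap a GR peak, in percent, by the number of other Pol2 peaks within 10 kb of the midpoint, for peaks with (red) and without (blue) H3K27ac. Points are shares with 95% Clopper-Pearson intervals and the number of peaks. Both lines go down from left to right, from 62.5% to 24.5% with H3K27ac and from 25.3% to 1.69% without it.

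A small number of genes, counted by nearest TSS, accounted for many of these peaks, and some of these genes, such as Nnmt, held none inside. The 3942 peaks had 1287 nearest genes, of which 730 had 1 peak and 47 had 10 or more, and those 47 accounted for 1437 peaks. The 10 genes with most, by nearest TSS, had 854 peaks, of which 61 (7.14%) had GR and 20.6% had H3K27ac, whereas the other 3088 had GR in 38.9% and H3K27ac in 71.7%. Among peaks with H3K27ac the gap was smaller but present, at 27.8% (21.4 to 35.1) of 176 and 51.0% (48.9 to 53.1) of 2215. Peaks that were alone at their gene had GR in 53.6% of cases and H3K27ac in 82.5%.

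Ttn, at chr2:76703980-76982547 on the minus strand, led with 206 peaks by nearest TSS and 238 within the gene, whose length of 279 kb was 60.4% covered by Pol2 peaks. Of the 238, 4 had H3K27ac and 1 had GR. Tacc2 had 174 peaks, of which 19 had H3K27ac and 11 had GR. Its annotated neighbour Fgfr2, the gene of a growth factor receptor, has a span in this annotation that also covers Tacc2, so a peak there can be assigned to either. Mylk4, a muscle kinase gene, had 64 peaks with GR in 3. Lpin1 had 49 with GR in 5, Asb2 had 43 with GR in 4, and Ldb3, which encodes a Z-disc protein, had 39 with GR in 5. Fbxo32 had 35 peaks with GR in 3.

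Zbtb16, which encodes the zinc-finger factor PLZF and is a GR target in many tissues, differed from Ttn in its marks. The gene body of 182 kb, at chr9:48654297-48836222 on the minus strand, held 190 of the peaks, 101 of them with H3K27ac (53.2%) and 27 with GR, where Ttn had 4 of 238 with H3K27ac. Shares as high were found in some sarcomere genes with fewer peaks, such as Myom2 (8 of 12 peaks in the gene) and Myh1 (5 of 8). Nearest-TSS assignment split them, since 114 counted for Zbtb16 and 76 of the 79 counted for Nnmt lay inside Zbtb16. Nnmt, the gene of nicotinamide N-methyltransferase, had no Pol2 peak in its own body. The 33 peaks nearest to Plekha3 likewise all lay in Ttn.

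**Figure D3:**
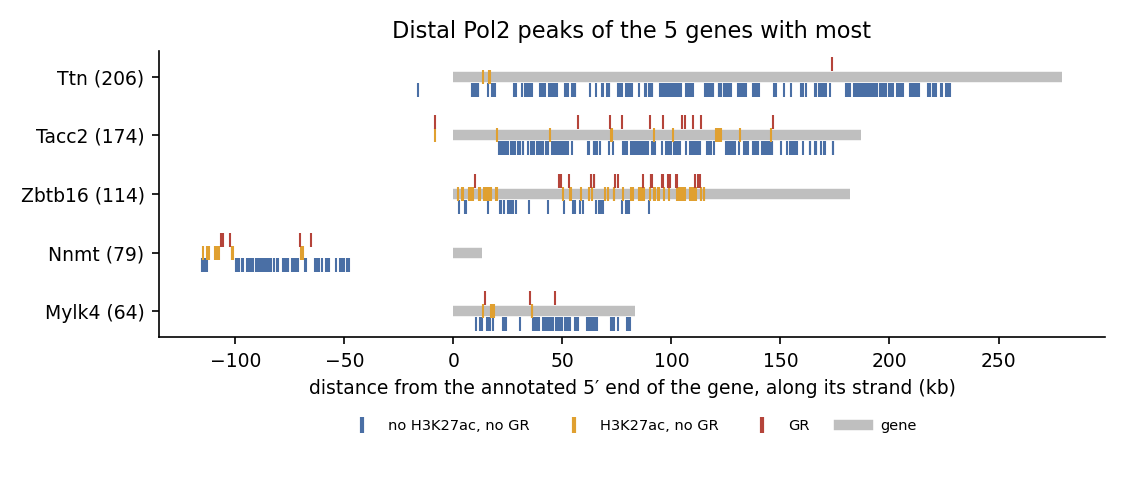
Positions of the distal Pol2 peaks of the 5 genes with most, in kb from the annotated 5′ end along the gene's strand, with the number of peaks in brackets and the gene body in grey. Ticks stand for peaks without H3K27ac or GR (blue), with H3K27ac and no GR (yellow) and with GR (red). Ttn is almost wholly blue over its body, Zbtb16 is mixed, and the peaks counted for Nnmt lie to the left of that gene, nearly all of them within Zbtb16.

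Across the 47 genes with 10 or more peaks, the share with GR ran from 0% in 10 genes, among them Mybpc2, Vegfa, Actn3 and Ryr1, to 92.9% in Fkbp5, with a median of 12.8%. In 3 genes it was 50% or more, and of these Slc25a25 was named for this value alone. Fkbp5 had GR at 13 of 14 peaks, Slc25a25, a mitochondrial ATP-Mg/phosphate carrier gene, at 6 of 10, and Nfic, a nuclear factor I gene, at 6 of 11. H3K27ac overlapped 12 of 14, 9 of 10 and 11 of 11 of them. High acetylation did not always come with GR: Tmem38a, which encodes a potassium channel of the sarcoplasmic reticulum, had H3K27ac at 13 of 14 peaks and GR at none, and Pfkm, the muscle phosphofructokinase gene, had H3K27ac at 14 of 15 and GR at 1.

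The 14 peaks of Fkbp5 (gene at chr17:28399094-28517527, minus strand) fell into 3 stretches. In the gene body, 4 intronic peaks lay between 17188 and 30160 bases from the nearest of the gene's several TSS, and 6 more lay between 1298 and 2775 bases from their nearest. Outside the gene, 4 peaks lay between 2497 and 4717 bases from their nearest TSS. Widths ran from 99 to 844 bases. The 13 with GR had their nearest GR midpoint at 20 to 467 bases, and the single one without GR, 134 bases wide, was 501 bases from a GR midpoint. Among these peaks 2 lacked H3K27ac, and both had GR. The 10 peaks nearest to the 5′ end each had 10 to 14 other Pol2 peaks within 10 kb, and 9 of them had GR, so the low GR share of crowded peaks did not hold at this gene.

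The gene lists were set against all protein-coding genes, of which 1608 of 21670 (7.42%) had a distal Pol2 peak within 25 kb of a TSS, and against the 10169 genes with Pol2 at a TSS, of which 12.2% had one. The fast or common sarcomere and calcium list had 23 of 26 genes with a peak, and 339 peaks in all. GR overlapped 28 of the 339 (8.26%, 5.56 to 11.7) and H3K27ac 79 (23.3%). Ttn had 148 of them, Ldb3 25 and Mybpc2, which encodes fast myosin-binding protein C, 23, none of the last with GR. The slow sarcomere list had 2 of 12 genes with a peak. They were Tnni1, the slow troponin I gene, with 7 peaks that all had H3K27ac and 1 of which had GR, and Mybpc1, with 3 peaks and GR at 1. All 7 at Tnni1 were nearer to another gene, and Tnni1 had no Pol2 peak at its TSS. Neither list was tested against other genes.

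Among known GR targets, 13 of 20 genes had a peak within 25 kb, with 91 peaks and GR at 29 (31.9%, 22.5 to 42.5), a share near the 32.0% of all the distal Pol2 peaks. Of these, Zbtb16 had 28 peaks with GR at 1, Fkbp5 13 with GR at 12, and Glul, the glutamine synthetase gene, 8 with GR at 1. Other members of this list included Dusp1, a MAP kinase phosphatase gene, with 7 peaks and GR at 4, and Tsc22d3, which encodes GILZ, with 6 peaks and GR at 3. Atrophy genes had a peak at 5 of 14, with 42 peaks and GR at 11. Fbxo32 held 29 of these with GR at 3. Trim63, the gene of the ubiquitin ligase MuRF1, held 9 with GR at 6, and Cblb, another ubiquitin ligase gene, held 2 with GR at 1.

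Muscle transcription factor genes had few peaks, nearly all acetylated. The list had 9 of 20 genes with a peak and 21 peaks, of which 20 had H3K27ac and 11 had GR (52.4%, 29.8 to 74.3). Nfic held 12 of the 21, with GR at 6. Mef2d held 2 with GR at 1 and Nfix 2 with GR at both. Myod1, the myogenic determination gene, had 1 acetylated peak without GR at 5256 bases. The circadian clock list was similar, with 9 of 19 genes, 33 peaks, H3K27ac at 28 and GR at 15 (45.5%, 28.1 to 63.6). There, Nr1d1, which encodes the repressor REV-ERB alpha, had 9 peaks with GR at 3, Tef, a D-box factor gene, had 6 with GR at 2, and Bhlhe41, a repressor gene, had 5 with GR at 3. All of these clock peaks at the 3 genes had H3K27ac.

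The glucose and glycogen list had 14 of 21 genes with a peak and 73 peaks, with H3K27ac at 54 and GR at 16 (21.9%, 13.1 to 33.1). Pfkm had 25 of these peaks with GR at 2, and Pygm, the muscle glycogen phosphorylase gene, had 8 with GR at 1. Hk2, the hexokinase II gene, had 7 with GR at 3 and H3K27ac at all 7. The fatty acid list had 12 of 26 genes and 31 peaks with GR at 8. Fabp3, a fatty acid carrier gene, and Ucp3, a mitochondrial uncoupling protein gene, had 10 peaks each, with GR at 2 and 3. Pnpla2, the adipose triglyceride lipase gene, had 2 without GR. Neuromuscular junction genes had a peak at 2 of 12, Dok7 with 2 and Lrp4 with 1.

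Lists of markers of cells other than muscle fibres were short, so the counts of genes with one of these peaks within 25 kb were small. Each list with such a gene had a share above the 7.42% of all protein-coding genes, and the other lists had none. For each list the interval included the 7.42%, so none was shown to have fewer or more. No gene had a peak among 8 adipocyte, 10 liver and 8 neuron markers. A gene with a peak was found for 1 of 12 endothelial markers (Eng), 1 of 12 fibro-adipogenic and fibroblast markers (Pdgfra), 2 of 10 satellite cell markers (Sdc4 and Myf5) and 2 of 12 immune markers (Fcer1g and Cd74). Eng had 6 peaks, none with GR or H3K27ac, and was the nearest gene to none of them. Myf5 and Cd74 had 1 peak each, which was also nearer to another gene. Where a marker had no peak, fewer cells of its type and less Pol2 per cell cannot be told apart in whole tissue.

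Distal H3K27ac peaks gave the comparison in the other direction. Of the 22612 H3K27ac peaks without H3K4me3 and more than 1 kb from a TSS, 1724 overlapped one of the distal Pol2 peaks, 20677 overlapped no Pol2 peak, and the remaining 211 overlapped another Pol2 peak. GR was at 58.5% (56.1 to 60.8) of the 1724, at 16.7% (16.2 to 17.2) of the 20677 and at 44.1% (37.3 to 51.1) of the 211. The median width of the H3K27ac peaks was 712 bases with Pol2 and 249 without. In quintiles of H3K27ac width, from narrow to wide, GR overlapped 18.2%, 14.0%, 35.5%, 45.7% and 70.8% of the peaks with Pol2, and 5.74%, 8.44%, 13.8%, 22.4% and 39.3% of those without. The share was higher with Pol2 in each quintile, and in the second the intervals overlapped, at 7.87 to 22.4 and 7.63 to 9.29. In the widest quintile width was not matched, with medians of 1005 bases with Pol2 and 701 without. The wide H3K27ac peaks without Pol2 still had GR more often than the narrow ones with it.

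**Figure D4:**
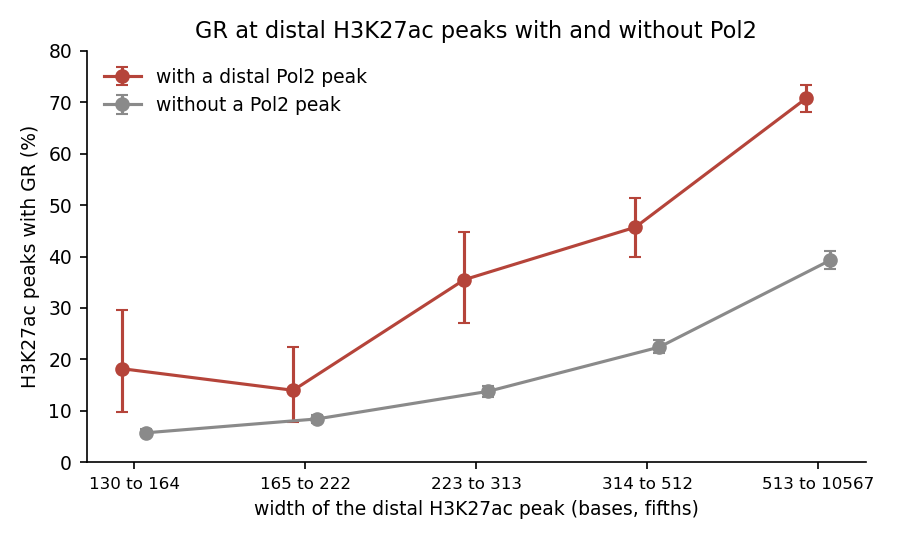
Share of distal H3K27ac peaks that overlap a GR peak, in percent, by quintile of H3K27ac peak width in bases, for peaks that overlap a distal Pol2 peak (red) and peaks without Pol2 (grey). Points are shares with 95% Clopper-Pearson intervals. Both lines are highest in the widest quintile, at 70.8% and 39.3%, and the red point is the higher one in each quintile, with overlapping intervals in the second.

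In sequence the distal Pol2 peaks were unlike promoters. Over 200 bases at the midpoint, GC content was 52.0% ± 6.01 (SD over 3942 peaks), against 61.4% over all Pol2 peaks. Its median was 52.5%, against 50.5% at distal H3K27ac peaks without Pol2. The observed over expected ratio of CpG was 0.248, against 0.711 over all Pol2 peaks. The SP/KLF site GGGCGG was in 6.93% of windows against 41.5% over all Pol2 peaks, and the ETS site CCGGAAGT in 0.228% against 4.67%. These and the other motifs are exact matches on either strand, which describe the sequence and not a bound site.

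MEF2, the MyoD-type E-box and AP-1 were more frequent at the centres of acetylated peaks than 1 to 2 kb away, while other muscle motifs (MCAT, MEF3 and the SRF CArG box) had like shares with and without H3K27ac. MEF2 matches were in 6.57% (5.61 to 7.63) of the 2391 windows with H3K27ac and in 1.74% (1.15 to 2.52) of the 1551 without. They were in 1.99% of windows over all Pol2 peaks and in 1.95% at distal H3K27ac peaks without Pol2, whose windows are centred on the acetylated region instead. Windows 1 to 2 kb from the acetylated Pol2 peaks held MEF2 in 2.38% to 3.68%. The MyoD-type E-box CAGCTG was in 21.3% (19.7 to 23.0) of windows with H3K27ac, in 14.6% (12.9 to 16.4) of those without, where windows 1 to 2 kb away held it in 9.67% to 12.4%, in 14.1% over all Pol2 peaks and in 15.0% at H3K27ac peaks without Pol2. The AP-1 site TGANTCA was in 9.54% of windows with H3K27ac, in 5.29% of those without, in 4.14% over all Pol2 peaks and in 5.82% at H3K27ac peaks without Pol2.

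The GR element ACANNNTGT was less sharply placed. It was in 8.41% (7.32 to 9.59) of windows with H3K27ac and in 5.69% to 7.4% of windows 1 to 2 kb away, and in 6.24% at H3K27ac peaks without Pol2 and 3.4% over all Pol2 peaks. Among peaks with GR the share was 11.1% (9.42 to 13.0), as at the Fkbp5, Fbxo32, Nfix and Lpin1 sequences printed earlier. Of the 214 acetylated peaks that held the element anywhere in the peak, 65.9% (59.1 to 72.2) had GR, against 47.6% of the 2177 that did not. MEF2 gave a similar split, with GR at 63.9% (54.7 to 72.4) of 122 and 48.5% of 2269. Peaks that held a motif were wider, with medians of 225 bases against 161 for the GR element and 239 against 161 for MEF2, and the part of width in these splits was not tested.

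Of the other motifs, some were as frequent in both classes and some were not. The MCAT site CATTCC, bound by TEAD factors, was in 12.0% of windows both with and without H3K27ac. It was in 7.94% over all Pol2 peaks, but in 11.1% at distal H3K27ac peaks without Pol2. MEF3 (TCAGGTT) was in 3.26% and 3.29% with and without H3K27ac, and the SRF CArG box was in 0.795% and 0.967%. The FOXO site GTAAACA was in 3.3% (2.62 to 4.1) with H3K27ac and 1.42% (0.891 to 2.14) without. The clock-type E-box CACGTG was in 3.32% of all distal windows against 5.84% over all Pol2 peaks, and the TATA box TATAAA in 7.74% against 4.56%. At distal H3K27ac peaks without Pol2 these 2 motifs were in 2.74% and 7.79% of windows. At distal Pol2 peaks with neither mark they were in 4.17% and 10.7%. The TATA box was thus no more frequent here than at other distal peaks. The D-box TTATGTAA, the ERR site TCAAGGTCA, the NF1 palindrome and the SRF CArG box were each in under 1% of the distal windows.

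**Figure D5:**
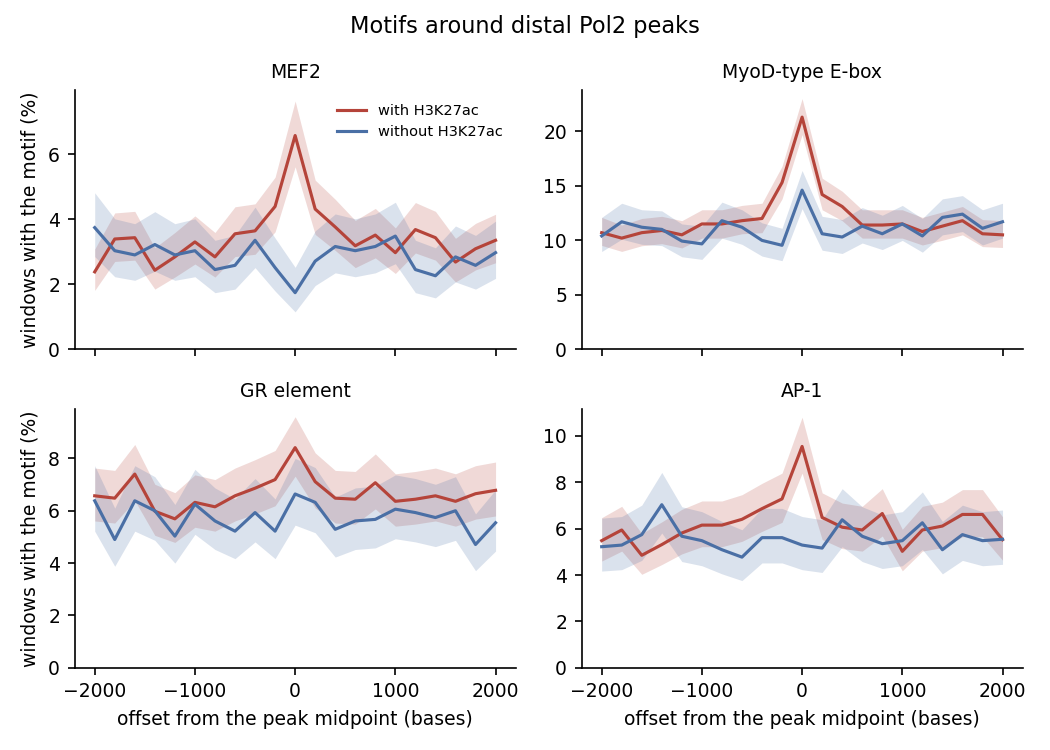
Share of 200-base windows that hold an exact match of MEF2, the MyoD-type E-box, the GR element or AP-1, in percent, by offset in bases from the midpoint of distal Pol2 peaks with (red) and without (blue) H3K27ac. Lines are shares and bands are 95% Clopper-Pearson intervals. With H3K27ac the central windows stand at 6.57%, 21.3%, 8.41% and 9.54%, and the MEF2 line without H3K27ac has no central rise.

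CTCF was rare at these peaks, as at other distal peaks. A CTCF peak overlapped 52 of the 3942 (1.32%, 0.987 to 1.73), against 5.03% over all Pol2 peaks and 6.22% of those with H3K4me3. The share was 1.09% (0.401 to 2.35) for distal Pol2 peaks with neither mark and 0.793% for distal H3K27ac peaks without Pol2. A low share was therefore not particular to this set. Of the 52, 25 had H3K27ac and 30 had GR (57.7%, 43.2 to 71.3). The fold enrichment of the 52 CTCF peaks in the authors' deposited table had a median of 7.64 (range 5.16 to 17.8). Over all 6510 CTCF peaks of that table the median was close, at 7.59, but the range was 2.19 to 98.5.

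The selection removed TSS of protein-coding transcripts alone, and 363 of the peaks (9.21%) lay within 1 kb of some other annotated transcript start. For 193 of these the nearest such start was of a non-coding transcript of a protein-coding gene, for 42 of a long intergenic RNA, for 40 of an antisense RNA and for 15 of a microRNA. GR overlapped 27 of the 42 at long intergenic RNAs (64.3%, 48.0 to 78.4). Long non-coding genes held some of the peaks without a protein-coding host. Lncpint held 26 peaks outside protein-coding genes, of which 15 had H3K27ac and 7 had GR, and the 30 peaks whose nearest protein-coding gene was Klf14 all lay outside protein-coding genes.

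The 10 widest peaks ran from 946 bases, in Ttn, to 996 bases, in a coding exon of Pygm. Of the 10, 3 had GR, and these 3 had H3K27ac. They lay in Ttn, in Slc16a3, a lactate transporter gene, and between genes. The last was 30945 bases from a TSS of its nearest gene, Myh2, a fast myosin heavy chain gene. The other 7 were at Ankmy1, Fhl3, Tacc2, Jun and Pygm and, for the remaining 2, in Ttn, and 2 of them had H3K27ac, at Fhl3 and Tacc2. By chromosome, the distal peaks were 28.0% (26.0 to 30.2) of the Pol2 peaks on chromosome 2, which holds Ttn, and 27.3% on chromosome 9, which holds Zbtb16. On X they were 23 of 409 (5.62%, 3.6 to 8.32).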

How the data were processed

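The authors deposited 6 peak lists, 1 per antibody, whose positions were used in bases. Per the submitters' processing notes, bcl2fastq 2.17.1.14, Bowtie 1.0.0, MACS2 and the build mm10 were used, with no thresholds stated. Read depth is not stated either, so the precision it would give is unknown. The CTCF list also holds the authors' deposited fold (ratio) of enrichment, which was used to describe peaks only.

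The members and lists were chosen with earlier results of these data known. Overlap of peaks meant 1 shared base, while the place of a peak in a gene, exon or intron was that of its midpoint. TSS and gene bodies came from GENCODE M21 of GRCm38, and 7 Pol2 peaks on Y and the mitochondrial genome were left out. The analysis used Python 3.11.15 with pandas 2.3.3 and scipy 1.17.1. The overlap, distance and motif counts were tested on simulated data. Named genes are the 10 with most peaks, those of the 10 widest peaks, up to 3 per list in the first 9 of 17 gene lists, and marker genes with a peak; others were named after their values were seen. Results for 2 genes under this rule are not reported here.

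Alternatives were 50% coverage, a 1 kb window, both marks, narrower or wider peaks, a larger TSS distance and other TSS annotation.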

Additional observations from a re-analysis of the deposited data

How the results depend on the processing

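Among the planned settings, requiring both marks gave 2269 peaks, with GR at 49.4% and 63.6% inside protein-coding genes, and the widest 50% were 1972 peaks. GR stood at 24.2% where it had to cover 50% of the Pol2 peak and at 49.5% where a GR peak within 1 kb counted, and CTCF within 1 kb stood at 3.63%. With no H3K4me3 within 1 kb, 72.7% lay inside genes, and beyond 5 kb from a TSS the nearest gene had Pol2 in 83.7%. Where 50% of the GR peak had to lie inside the H3K27ac peak, GR was at 43.0% of H3K27ac peaks with a distal Pol2 peak and 8.43% of those without Pol2. Chosen after seeing the data, leaving out the 10 genes gave GR 38.9%, genes 63.0% and Pol2 at the nearest gene 84.5%, and the 1551 peaks without H3K27ac gave GR 5.35%, CTCF 1.74% and genes 82.0%. The cause of these moves was not tested. Motif shares went with the window: MEF2 was in 1.6%, 4.67% and 9.23% of windows of 100, 200 and 400 bases at distal Pol2 peaks, and in 0.914%, 1.95% and 6.29% at H3K27ac peaks without Pol2. Within 100 kb of a TSS, 73.7% of clock and 85.7% of glucose and glycogen genes had a peak (25 kb: 47.4% and 66.7%), against 20.1% of all genes. At that distance the immune, satellite cell, adipocyte and fibroblast marker shares stood above the 20.1%. The endothelial, liver and neuron shares stood below it, and the interval of each of these marker lists included it. By nearest gene alone no endothelial marker had a peak. The other 43 settings of the results before these moved each value by less than its interval, or the count by less than 1.5 times. No paired analysis was possible because there was 1 library per antibody. Depth is unknown, so a peak that was not called is not shown to be absent, and with no replicate nothing here measures variation between animals.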
